A study of Canis lupus familiaris with 16 samples.

Results

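CTPS1 (ENSCAFG00000002732) encodes CTP synthase 1 and is 1 of the 24580 Ensembl genes in the deposited table of canine meningioma and normal meninges. It was chosen because it is on the list of genes overexpressed in the meningiomas, which holds 41 distinct identifiers and was drawn up on these same libraries. The contrast of meningioma with normal meninges therefore chose the gene, and its values in that contrast are given here as a description with no test. RNAseq was performed on 13 meningiomas, 6 labelled grade I (transitional or meningothelial) and 7 labelled grade II (atypical), and on the meninges of 3 healthy research beagles. The meningiomas were surgical biopsies of older pet dogs of several breeds, and all but a pair of frozen ones were fixed in formalin and embedded in paraffin, whereas the control leptomeninges were flash-frozen. The age of the beagles is not given in the sources used here. Disease and breed cannot be told apart between the groups, and the part of tissue preservation in the differences was not tested. Libraries are numbered within their group from 0 and their names do not match the labels of single dogs, so grade I and grade II, or frozen and fixed tumors, were not compared here. No animal carried a transgene or a treatment stated in the labels.

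CTP synthase makes CTP from UTP, with glutamine as the source of nitrogen and ATP as the source of energy, and this is the last step of the de novo route to cytidine nucleotides. CTP is used for RNA and DNA synthesis and, as CDP-choline and related compounds, for membrane phospholipids. The enzyme exists as the isozymes CTPS1 and CTPS2, and CTPS1 is best known for the demand of dividing lymphocytes and tumor cells. The enzyme can assemble into filaments in cells. The pyrimidine synthesis genes that work beside it, among them CAD, DHODH, UMPS and CTPS2, were not analysed here, since of the 20 genes of that list only CTPS1 has an identifier paired with a symbol. In the RefSeq gene order of another dog assembly (UU_Cfam_GSD_1.0), CTPS1 lies between LOC119869294 and CITED4.

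The meningioma libraries held 2138741 to 7358925 gene-assigned fragments each, with a median of 4095984, and the control libraries 2269204 to 7054614. Of these, 100 to 1562 fragments were on CTPS1 in a meningioma library and 463, 141 and 269 in control libraries 0, 1 and 2. The counting error on the gene was therefore small, with a coefficient of variation between 2.53% and 10.0% over the 16 libraries. Intervals given below are exact Poisson intervals at 95% and cover counting error only, since reads carried no molecular identifiers.

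In normal meninges the level of CTPS1 hardly varied. FPKM, a count of fragments scaled to the length of the transcript and the depth of the library, was 23.2 in control library 0, 20.1 in library 1 and 20.4 in library 2. The mean was 21.2 ± 1.74 FPKM (SD, n = 3), and the counting intervals of the 3 libraries overlapped, with 21.2 to 25.4, 16.9 to 23.7 and 18.0 to 23.0 FPKM. On the log2 scale of CPM, the count as a share of the library's total after TMM normalization, the SD between the controls was 0.11, which is below that of most genes (median 0.31 over the 14345 genes tested). The gene was picked by a test on these same 3 controls, which favours genes whose controls lie close together. Nothing is therefore read from the low SD.

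In the meningiomas CTPS1 was mostly near 3 times that level and varied more. The lowest library had 9.19 FPKM, the median library 65.2 and the highest 115, and the mean was 61.2 ± 25.7 FPKM (SD, n = 13). Of the 13 libraries, 12 were above every control and 1, library 6, was below every control. Of the 14345 tested genes, 5.29% had at least 12 meningioma libraries above every control on the CPM scale, 2.15% had all 13 above, and 1.16% had at least 12 above and at least 1 below every control. CTPS1 had 12 above and 1 below on that scale too, and nothing is read from this, since the gene was picked for its difference. The groups therefore overlapped in range because of library 6 alone.

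**Figure D1:**
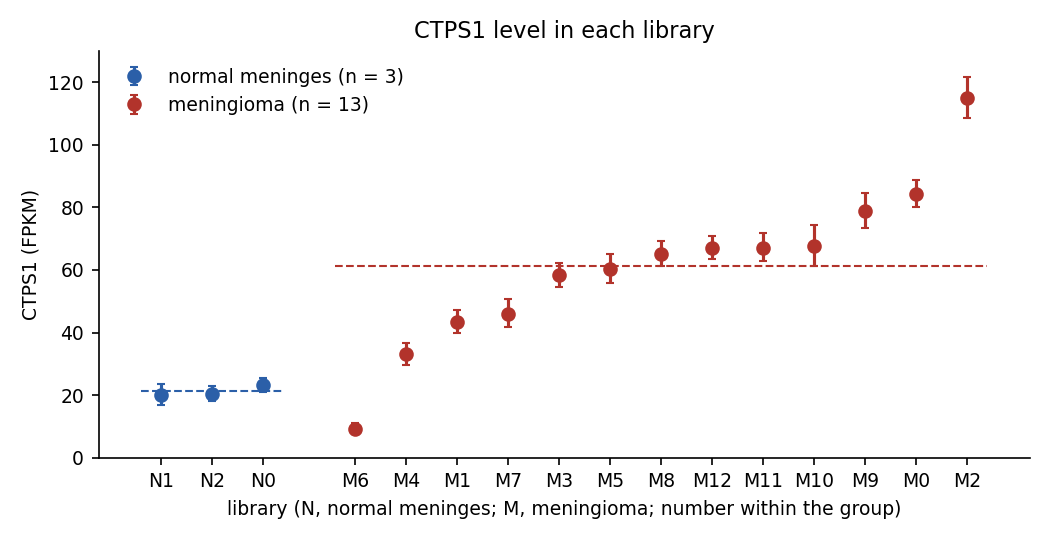
CTPS1 FPKM (y axis) in each of the 3 normal meninges libraries (N, blue) and 13 meningioma libraries (M, red), ordered by level within the group. Bars are 95% counting intervals and dashed lines are group means, and 12 of the 13 meningioma libraries sit above all controls while M6 sits below them.

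The order of the meningioma libraries showed a wide middle and a few libraries apart from it. Library 6 was lowest, with 100 fragments and 9.19 FPKM (7.48 to 11.2). Library 4 came next with 33.0 FPKM (29.6 to 36.7), and its interval met neither that of library 6 nor that of library 1 above it. Libraries 1 and 7, with 43.5 FPKM (39.8 to 47.3) and 46.1 FPKM (41.8 to 50.7), did not differ beyond their counting intervals.

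Above these, 8 libraries lay between 55 and 85 FPKM. Libraries 3, 5 and 8 had 58.2, 60.4 and 65.2 FPKM, and libraries 12, 11 and 10 had 67.0, 67.1 and 67.7 FPKM. Each of these 6 libraries had an interval that overlapped that of its neighbour in the order, so neighbours were not resolved at this depth, although the interval of library 3 (54.5 to 62.1) lay below those of library 12 (63.4 to 70.8) and library 11 (62.8 to 71.7). Libraries 9 and 0 followed with 78.8 FPKM (73.4 to 84.5) and 84.4 FPKM (80.2 to 88.7), and their intervals overlapped as well. Library 2 stood above all others with 1188 fragments and 115 FPKM (109 to 122).

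Against the control mean, library 2 was at 5.41 times the FPKM and library 6 at 0.433 times. A level of 2 or more times the control mean was reached by 11 meningioma libraries, 3 or more times by 7 and 4 or more times by 1. The highest of the 13 meningiomas was 12.5-fold the lowest, and 3.48-fold without library 6, which was left out for its low value. The highest of the 3 controls was 1.16-fold the lowest. Such a ratio tends to grow with the number of libraries, so the groups are not compared like for like by it. Counting error accounted for 0.805% of the variance of FPKM between the meningiomas.

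In the fit across all genes with edgeR, the log2 fold change of CTPS1 was 1.53 (standard error 0.47), a fold of 2.89. No p is given for it, since this contrast chose the gene. By the same test 4.86% of the 14345 genes had an adjusted p under 0.05 (1.31% higher in meningioma), and 3.43% had a log2 fold change at or above that of CTPS1. The ratio of mean FPKM was 2.88, and 3.09 without library 6. When single libraries were left out, each of the 16 once, the value ranged from 1.42 (without meningioma library 2) to 1.63 (without meningioma library 6). Leaving out library 6 also lowered the standard error from 0.47 to 0.31, while leaving out any one control raised it to between 0.58 and 0.59.

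**Figure D2:**
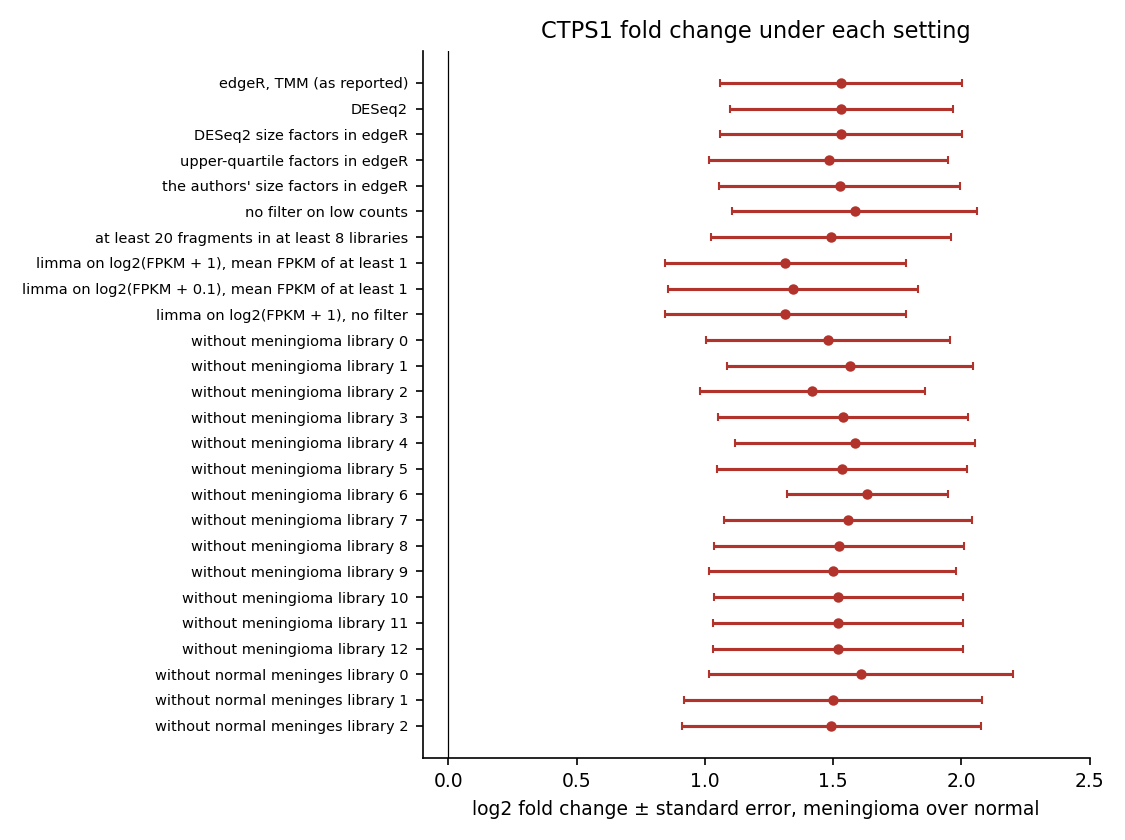
CTPS1 log2 fold change of meningioma over normal meninges (x axis) under each setting (y axis), with bars of 1 standard error. The values run from 1.31 with limma on log2 FPKM to 1.63 without meningioma library 6, and all are above 0.

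Compared with all genes, CTPS1 was a gene of middle to high level. Its mean FPKM was at percentile 69.7 of the 15149 genes with a mean of at least 1 FPKM in normal meninges, and at percentile 90.7 of the 14460 such genes in the meningiomas. The median of these genes was 11.3 FPKM in normal meninges and 12.3 FPKM in the meningiomas. The SD of CTPS1 between meningiomas was 0.89 in log2 CPM, against a median of 0.60 over the tested genes, and was at percentile 70.1. Without library 6 it was 0.47, against a median of 0.59, and at percentile 36.0. The spread of CTPS1 among the meningiomas was therefore above that of most genes only with library 6 included. That library was left out for its low CTPS1, so a fall in the SD of CTPS1 was built into the choice.

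Within the study's list of overexpressed genes, CTPS1 had the smallest log2 fold change, at rank 41 of 41. FAM210B, a mitochondrial membrane protein gene, came just above it at 1.61 (standard error 0.28). In FPKM, CTPS1 was at rank 9 of the 41 by its level in normal meninges and at rank 19 by its level in the meningiomas. Its SD between meningiomas was the 10th lowest and its standard error the 6th lowest. These ranks describe genes which the study picked from the same libraries.

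**Figure D3:**
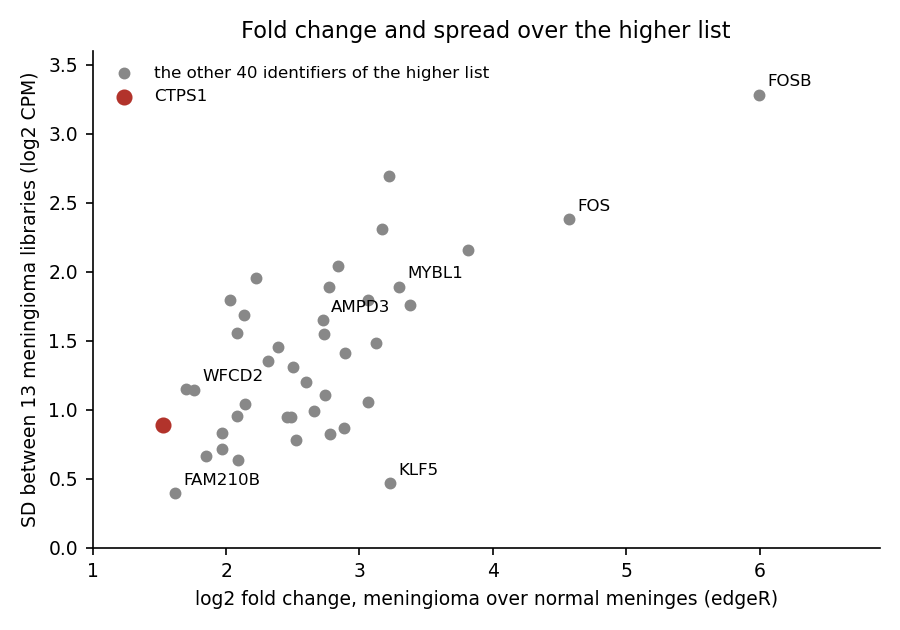
For the 41 identifiers of the list of overexpressed genes, the log2 fold change of meningioma over normal meninges (x axis) and the SD of log2 CPM between the 13 meningioma libraries (y axis). CTPS1 (red) is at the left edge, with a fold change of 1.53 and an SD of 0.89, while FOSB is at 5.99 with an SD of 3.28.

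Library 6 was below every control for some genes of that list and above the control mean for most of them. In it, 7 of the 41 identifiers were below every control, among them CTPS1, AMPD3 and a gene spelled WFCD2 in the list. The library and these names were singled out after their values were seen. The share of all tested genes below every control in library 6 was not worked out, so nothing is read from the count of 7 or from its place among the libraries. The next highest number was 5, in library 12, and the other meningioma libraries had between 0 and 3. In library 6, 28 of the 41 identifiers were above the control mean in FPKM, against 32 to 41 in the other meningiomas. All 83 identifiers of the list of underexpressed genes were below the control mean in library 6, as they were in every other meningioma library. The study picked those genes as lower on these same libraries, library 6 included, so nothing is read from this. Over all tested genes, the median Spearman correlation of library 6 with the other meningiomas was 0.860, the lowest of the 13. Library 2, the highest for CTPS1, came close to it with 0.869, library 12 had 0.874, and the highest was 0.911.

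Vascular genes were lower in every meningioma than in every control when summed, and their values are given here because CTPS1 was measured in whole tissue. The lists were drawn from genes that the study had picked on these libraries, so their direction is not independent evidence. The 14 endothelial genes, such as PECAM1 and FLT1, summed to between 54.5 and 213.7 FPKM in the meningiomas and between 561 and 927 in the controls. The 6 mural genes, such as MYH11 and NOTCH3, summed to between 14.5 and 54.4 FPKM in the meningiomas and between 131 and 327 in the controls. PDPN, a marker of arachnoid cells, ranged from 44.1 to 478 FPKM in the meningiomas and from 16.9 to 44.6 in the controls. No member of these lists was at 0 in any library. In bulk tissue, fewer cells of a type and less RNA per cell cannot be told apart, and the part of tissue makeup in the level of CTPS1 was not tested between the groups. Library 6 had 181 FPKM in endothelial genes and 132 FPKM in PDPN, both inside the range of the other meningiomas. It held the highest meningioma FPKM for 6 of the 14 endothelial genes (TIE1, TEK, FLT1, EMCN, PTPRB and CALCRL), and its mean of the endothelial list, 4.78 in log2 CPM, was below that of library 7 alone, at 4.99. Library 2, the highest for CTPS1, had an endothelial mean of 4.59, and the mural means of libraries 2 and 6 were 4.65 and 4.64. In library 6, FPKM was above the meningioma median for 13 of the 14 endothelial genes and 6 of the 6 mural genes. The same held for 6 of 6 immediate-early genes, such as FOS. The share of all genes above that median, or with their highest meningioma FPKM, in library 6 was not worked out. Nothing is read from these counts. The part of vascular RNA in the low CTPS1 of library 6 was not tested. Markers of proliferation (MKI67, TOP2A and others) and of leukocytes (PTPRC, CD68 and others) had no identifier paired with a symbol and were not analysed here.

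Whether CTPS1 varied with other measures among the meningiomas was tested over the 13 libraries, without the controls. The 8 measures were MYC, MYBL1, AMPD3, PDPN, the means of the endothelial, mural and immediate-early gene lists, and the total fragments of the library. Values were log2 CPM, tests were two-sided permutation tests with 100000 resamples, and p-values were adjusted over the 8 relations. The measures were chosen with earlier results of these data known. All but the total fragments came from genes that the study had picked on these libraries. The p-values do not account for these choices. By Pearson's r, 1 of the 8 relations had an adjusted p under 0.05, and by Spearman's rho 0 had (unadjusted p under 0.05: 3 by r and 1 by rho).

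MYBL1, a MYB family transcription factor gene, had the relation that passed. Its FPKM ran from 2.40 in library 4 to 188 in library 2, with a median of 16.2, and libraries 4 and 2 were also the second lowest and the highest for CTPS1. Pearson's r was 0.628 (permutation p = 0.00470, adjusted p = 0.0376) and Spearman's rho was 0.665 (permutation p = 0.0166, adjusted p = 0.133). Without libraries 2 and 4, which lay farthest from the MYBL1 median, r was 0.512 (permutation p = 0.0537, adjusted p = 0.430, n = 11), so the call was lost while r kept its direction. With any single library left out, r lay between 0.544 and 0.714. Without library 6, r was 0.714 and the adjusted p was 0.0710. Over the 13 libraries, the r of MYBL1 was below those of MYC (0.787) and AMPD3 (0.837), which did not pass. The share of all tested genes with an r at or above that of MYBL1 was not worked out.

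MYC encodes a transcription factor that is known to drive genes of nucleotide synthesis. In the meningiomas its FPKM ran from 13.7 in library 6 to 111 in library 0, with a median of 76.3, and in the controls from 13.2 to 24.8. Library 6 was the lowest meningioma for both MYC and CTPS1. Pearson's r was 0.787 (permutation p = 0.0176, adjusted p = 0.0504) and Spearman's rho was 0.511 (permutation p = 0.0768, adjusted p = 0.307). Without library 6, r was 0.381 (permutation p = 0.225, adjusted p = 0.511, n = 12), and without libraries 6 and 5, which lay farthest from the MYC median, it was 0.415. The relation of CTPS1 to MYC thus rests on library 6.

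AMPD3, which encodes an AMP deaminase of purine metabolism, gave a similar picture. Its FPKM ran from 1.64 in library 6 to 136 in library 1, with a median of 62.2, against 5.45 to 16.6 in the controls. Pearson's r was 0.837 (permutation p = 0.0189, adjusted p = 0.0504) and Spearman's rho was 0.363 (permutation p = 0.224, adjusted p = 0.529). Without libraries 6 and 4, which lay farthest from the AMPD3 median, r turned to -0.236, and without library 6 alone it was 0.355.

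**Figure D4:**
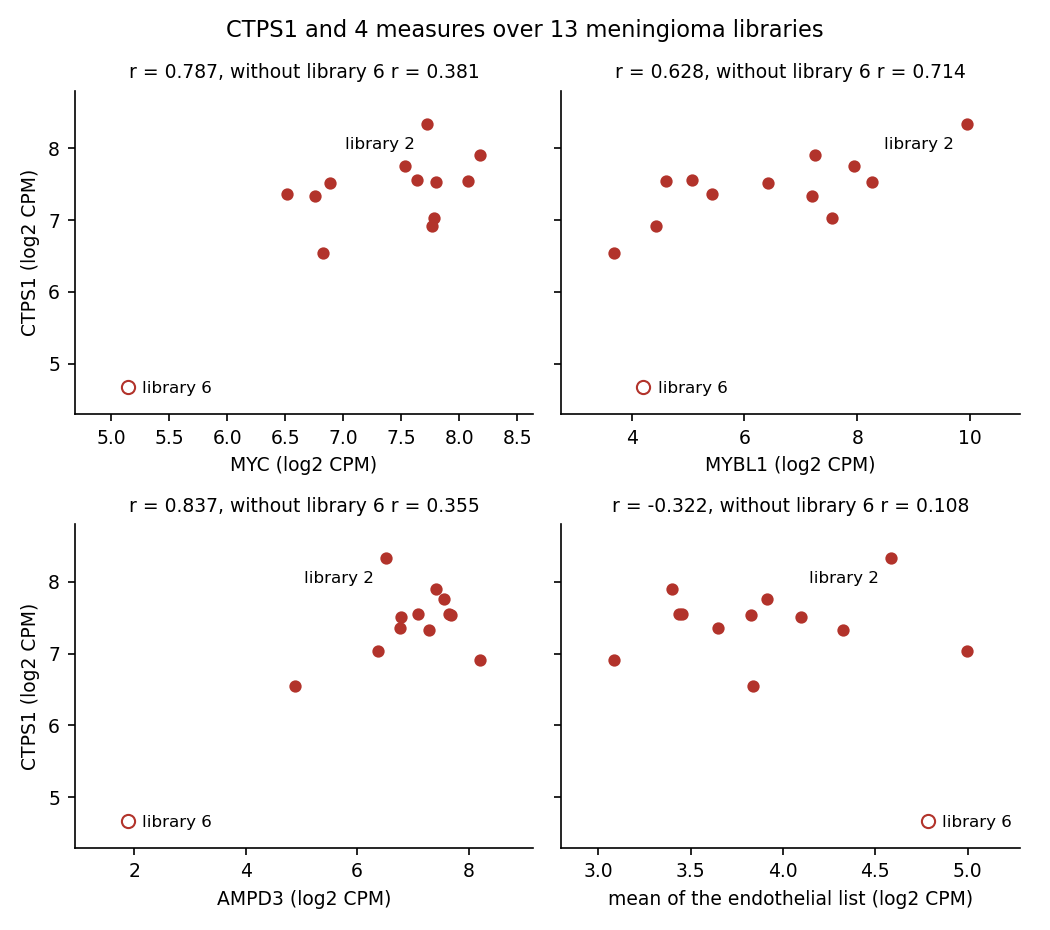
CTPS1 (y axis, log2 CPM) against MYC, MYBL1, AMPD3 and the mean of the endothelial list (x axes, log2 CPM) in the 13 meningioma libraries, 1 point per library. Library 6 (open circle) lies far below the others, and r for MYC is 0.787 with it and 0.381 without it.

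None of the other 5 measures had an adjusted p under 0.05. For PDPN, r was 0.197 (permutation p = 0.530, adjusted p = 0.605) and rho was 0.335 (permutation p = 0.264, adjusted p = 0.529), and r was -0.00315 without libraries 2 and 3. The mean of the endothelial list had an r of -0.322 (permutation p = 0.326, adjusted p = 0.512) and a rho of -0.242 (permutation p = 0.427, adjusted p = 0.569), and r was 0.388 without libraries 7 and 6. The mean of the mural list had an r of -0.253 (permutation p = 0.384, adjusted p = 0.512) and a rho of -0.110 (permutation p = 0.727, adjusted p = 0.830), and r was -0.259 without libraries 7 and 12. The sign of r changed for the endothelial mean when libraries 7 and 6 were left out, and 13 libraries resolved no relation to vascular RNA.

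The 6 immediate-early genes (FOS, FOSB, EGR1, NR4A1, ZFP36 and GEM) are known to respond within minutes to stress and handling of tissue. Their mean had an r of -0.0133 with CTPS1 (permutation p = 0.926, adjusted p = 0.926) and a rho of 0.0549 (permutation p = 0.863, adjusted p = 0.863), and r was -0.238 without libraries 0 and 11. Their summed FPKM ran from 45.1 to 1960 in the meningiomas and from 35.2 to 62.8 in the controls. For depth, taken as log2 of total fragments, r was 0.251 (permutation p = 0.373, adjusted p = 0.512) and rho was 0.291 (permutation p = 0.334, adjusted p = 0.535). Without libraries 10 and 0, that r was 0.337.

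**Figure D5:**
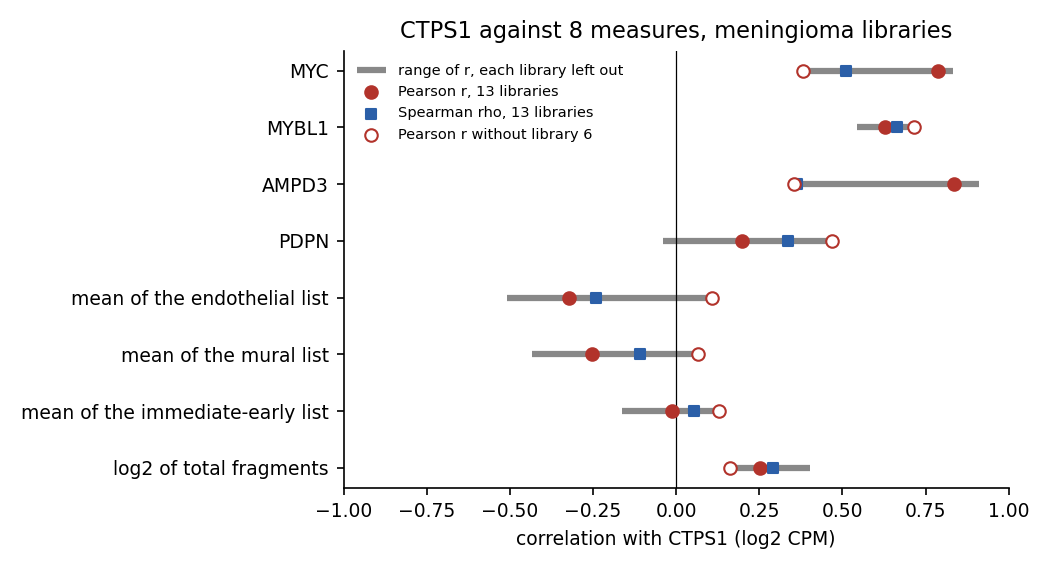
Pearson's r (red) and Spearman's rho (blue squares) of CTPS1 with each of the 8 measures (y axis) over the 13 meningioma libraries, with r without library 6 (open circles) and the range of r when each library is left out (grey bars). The bars of MYC and AMPD3 reach down to 0.381 and 0.355, while that of MYBL1 stays between 0.544 and 0.714.

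Of the 123 other genes with a symbol, those whose pattern over the meningiomas was most like that of CTPS1 by Pearson's r were AMPD3 (0.837), VWA5A (0.805) and WFCD2 (0.801), and MYC was at rank 4. These were picked as the most alike, so no test is given. VWA5A, a gene with a von Willebrand factor A domain, ran from 61.7 FPKM in library 6 to 342, with 335 in library 2, and its rho with CTPS1 was 0.615. WFCD2 ran from 24.8 FPKM in library 6 to 571 in library 2, and its rho was 0.335. Without the 2 libraries farthest from each gene's own median, r was 0.490 for VWA5A and 0.0457 for WFCD2.

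The genes that were least like CTPS1 were TF, which encodes the iron carrier transferrin, with an r of -0.723 and a rho of -0.538, and PERP, a p53 target gene of desmosomes, with an r of -0.692 and a rho of -0.659. TF had its highest level, 471 FPKM, in library 6, where CTPS1 was lowest. PERP had its lowest meningioma level, 37.8 FPKM, in library 2, where CTPS1 was highest. Without library 6, r was -0.403 for TF and -0.742 for PERP. Without the 2 libraries farthest from each gene's own median, it was -0.679 and -0.544.

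Over all 14344 other tested genes, the median r with CTPS1 was -0.027. An r at or above that of MYC was found in 0.544% of them, and in 15.0% once library 6 was left out. For AMPD3 these shares were 0.258% and 16.9%. For MYBL1, whose r over the 13 libraries was lower than either, they were not worked out. Of the 40 other overexpressed genes, 27 had an r above 0, with a median of 0.184, and without library 6 it was 23 with a median of 0.072. Of the 83 underexpressed genes, 13 had an r above 0, and their median was -0.285 with library 6 and -0.152 without it. The libraries share these genes' normalization, and the genes are not independent of each other. Both lists were picked on these libraries, and the share of all tested genes with an r above 0 was not worked out. Nothing is therefore read from the counts of list members.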

How the data were processed

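RNAseq of 13 canine meningiomas and 3 normal meninges was analysed. Per the submitters' processing notes and the paper's methods, reads were trimmed (cutadapt 1.8), cleared of ribosomal and small RNA reads, mapped to Ensembl CanFam3 (TopHat2 2.0.13, strand-specific) and counted per gene (Cuffdiff 2.2.1). The authors deposited an estimated count of fragments per gene and library, a signal made by dividing it by 1 size factor per library, and FPKM. The CTPS1 ratio of FPKM to scaled fragments was the same, within 0.01%, in 16 of 16 libraries.

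Fragments were rounded (1364 of 393280 values were not whole) and fitted with edgeR 4.0.16 (quasi-likelihood test, TMM, R 4.3.3) on genes that reached 10 fragments in 3 or more libraries, and p-values were adjusted by Benjamini-Hochberg. The standard error was taken from the fold change and the square root of F. Log2 CPM used a prior count of 0.5. Alternatives were DESeq2 1.42.0, limma 3.58.1 on log2 FPKM with a pseudocount of 1 or 0.1, other size factors and filters, and each library left out. Relations used Python 3.11.15 with scipy 1.17.1. Scripts were tested on simulated data.

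The gene, the lists and the measures were chosen with earlier results of these data known, and members of the lists came from genes the study had selected on these libraries. The rule for named genes was CTPS1, the 8 measures, its neighbour in the order of fold changes, the list members, and the genes with the highest and lowest r. Genes named for library 6 were chosen after their values were seen. Symbols came from the study's lists (124 identifiers). Replicates are separate dogs, so the tests rest on the variation between dogs. The table was taken as condition C for meningioma and N for normal meninges, by their 13 and 3 libraries. No sequence of CTPS1 was used here. Some results are not reported here.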

Additional observations from a re-analysis of the deposited data

How the results depend on the processing

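No paired analysis was possible because the meningiomas and the normal meninges came from different dogs. The table numbers libraries from 0 within each group. It does not carry the replicate numbers of the labels, so the fit with a block was not run. The log2 fold change of CTPS1 kept its direction in all 25 alternatives and moved by less than 1 SD between meningiomas (0.89). Leaving out 1 library could hardly move it that far, and the gene was picked as higher on these libraries. The values below are therefore a description only. It lay between 1.31 and 1.58 over 9 alternatives of tool, scaling, filter and unit, and between 1.42 and 1.63 with each library left out. The number of genes called by edgeR, 697, was 1364 with DESeq2 and 1115 with limma on log2(FPKM + 1) without a filter, and lay between 169 and 931 with each library left out (245, 350 and 169 without control library 0, 1 and 2). Since 3 controls set it, percentages of called genes are a rough background.

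Of the 8 relations, the number with an adjusted p under 0.05 was 1, and 0 without the 2 libraries farthest from the median of the other measure. With each meningioma library left out it lay between 0 and 3, with 0 without library 0, 2, 6, 8 or 9 and 3 without library 1. Of these 13 fits, MYBL1 passed in 8, MYC in 1 and AMPD3 in 1. The direction of r turned for 5 relations, none of which had passed. Without the 2 farthest libraries, r was -0.236 for AMPD3, -0.00315 for PDPN and 0.388 for the endothelial mean. On log2(FPKM + 1), r was 0.00130 for the immediate-early mean. With each library left out, r lay between -0.038 and 0.467 for PDPN, between -0.508 and 0.108 for the endothelial mean, between -0.433 and 0.067 for the mural mean and between -0.163 and 0.130 for the immediate-early mean. Among the fits leaving out 1 library, the endothelial and mural r turned only without library 6, and the PDPN r only without library 2. The cause was not tested. The comparisons without library 6 were chosen after seeing the data.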

Other observations

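Over all tested genes, including those without a symbol, the patterns most like CTPS1 over the 13 meningioma libraries were those of ENSCAFG00000002380 (r = 0.928, rho = 0.797) and ENSCAFG00000014730 (r = 0.920, rho = 0.577). ENSCAFG00000002380 ran from 12.7 FPKM in library 6 to 44.2 in library 2, and ENSCAFG00000014730 from 8.72 FPKM in library 6 to 39.8 in library 2, so both had their lowest and highest values in the same libraries as CTPS1. In the controls they had 19.9 to 25.5 FPKM and 17.4 to 19.9 FPKM. Without library 6, r was 0.785 and 0.806. The most opposite patterns were those of ENSCAFG00000031936 (r = -0.938, rho = -0.769), at 5.69 to 12.1 FPKM, and ENSCAFG00000008752 (r = -0.925, rho = -0.819), at 0.202 to 12.4 FPKM, and both were highest in library 6. Without library 6, r was -0.761 and -0.805. These 4 genes were picked as extremes of 14344, so no test is given, and no symbol was matched to them.

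When library 6 was left out, a choice made after its values were seen, the order of likeness among genes with a symbol changed. MYBL1 (r = 0.714), the endothelial receptor gene CD93 (0.614) and VWA5A (0.551) were then most like CTPS1, and MYC was at rank 10 and AMPD3 at rank 13 of 123. PERP (r = -0.742) and PIK3R1, a regulatory subunit gene of PI3 kinase (r = -0.741), were least like it. VWA5A and PERP were thus among the named extremes both with and without library 6. CD93 had an r of 0.0848 with library 6 included, so its place among these genes rests on leaving that library out.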
